A study of Mus musculus with 21 samples.

Results

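The genes described here encode the nuclear subunits of oxidative phosphorylation, measured in the livers of mice fed a high-fat diet with or without quercetin. They were found on the array by name: every non-control spot whose gene name begins as those of the subunits of complexes I to V do (Nduf, Sdh, Uqcr, Cyc1, Cox4 to Cox8, Atp5) was taken, and the brightest probe stood for each gene. This gave 86 of the 34797 gene names on the array, of which 35 were placed with complex I, 4 with complex II, 9 with complex III, 20 with complex IV and 15 with complex V. The other 3 (Cox4nb, Atp5s and Atp5sl, now called Emc8, Dmac2l and Dmac2) share the spelling only and are not subunits. Ndufa4 and Ndufa4l2 carry a complex I name and were counted with complex IV, where the Ndufa4 protein is known to sit.

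Adult male C57BL/6J mice spent 3 weeks on a normal-fat diet and then 12 weeks on a high-fat diet. In the HF-Q group the diet also held 0.33% (w/w) quercetin, a flavonol of onions and other plants, and in the HF group it held none. All mice were fasted for 2 to 4 hours before the liver was taken. Of 24 mice studied, 10 HF-Q and 11 HF livers remained after the authors left out 3 arrays. Each 2-colour array carried 1 liver in Cy5 and the same pool of all livers in Cy3, and the values below are normalized log2 ratios of Cy5 to Cy3, so that 0 is the level of the pool. The 21 livers include no group without the high-fat diet, and the ratios of whole tissue cannot tell fewer cells of a type from less RNA per cell.

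Complexes I and II pass electrons from NADH and succinate to coenzyme Q, complex III passes them on to cytochrome c, and complex IV hands them to oxygen. The protons that complexes I, III and IV pump drive complex V, the ATP synthase. Most subunits are encoded in the nucleus and some in the mitochondrial genome, and hepatocytes, rich in mitochondria, make the bulk of the tissue. Several complex IV subunits also exist as forms known from heart and skeletal muscle, lung or testis.

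In Cy5, 44.2% to 51.3% of probes passed the scanner software's limit over background (called well above background here) on the 21 arrays, and the number of arrays limits the precision. Of the 86 genes, 83 were measured well above background on at least 10 arrays and were tested with 19650 genes in all; the 83 include the 3 that share the spelling only. The 3 that were not are Cox7b2 and Cox8c, forms known from testis, well above background on 0 arrays, and Cox8b, the heart and muscle form of subunit 8, which passed on 4 HF-Q and 4 HF arrays. None of the subunit spots was saturated. A library standing apart, HF replicate 2, had the lowest mean of these genes, and 1 spot of Ndufa6 in HF replicate 8 went against the other arrays; both are described with the values they touch. The HF-Q and HF ranges of all 83 genes overlapped. The share of all genes that did so was not counted, so the overlap does not set these genes apart.

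No gene of oxidative phosphorylation passed the test between the diets, and most of their 95% intervals lay close to 0. By limma's moderated test with Benjamini-Hochberg adjustment over all genes, 0 of the 83 passed an adjusted p of 0.05, as did 0% of all genes, and the lowest adjusted p among the 83 was 0.747. At an unadjusted p below 0.05 there were 2 of 83, where the background over all genes was 5.93%. Differences of HF-Q from HF ran from -0.11 for Atp5a1 to 0.14 for Ndufa6 on the log2 scale. The 95% interval of the difference lay within 1.2-fold in either direction for 81 of the 83 genes, against 89.1% of all genes, and within 1.1-fold for 68, against 37% of all genes. The exceptions at 1.2-fold were Cox7a1 and Ndufa6. These transcripts varied little from liver to liver: their median SD was 0.080, against 0.126 for all genes, and 81 of the 83 lay below that all-gene value. Their probes were mostly bright, with mean log2 signals over both dyes up to 17.5 (Cox6a1), and the all-gene values were not matched for signal strength. The part of signal strength in the small SD and narrow intervals was not tested.

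**Figure D1:**
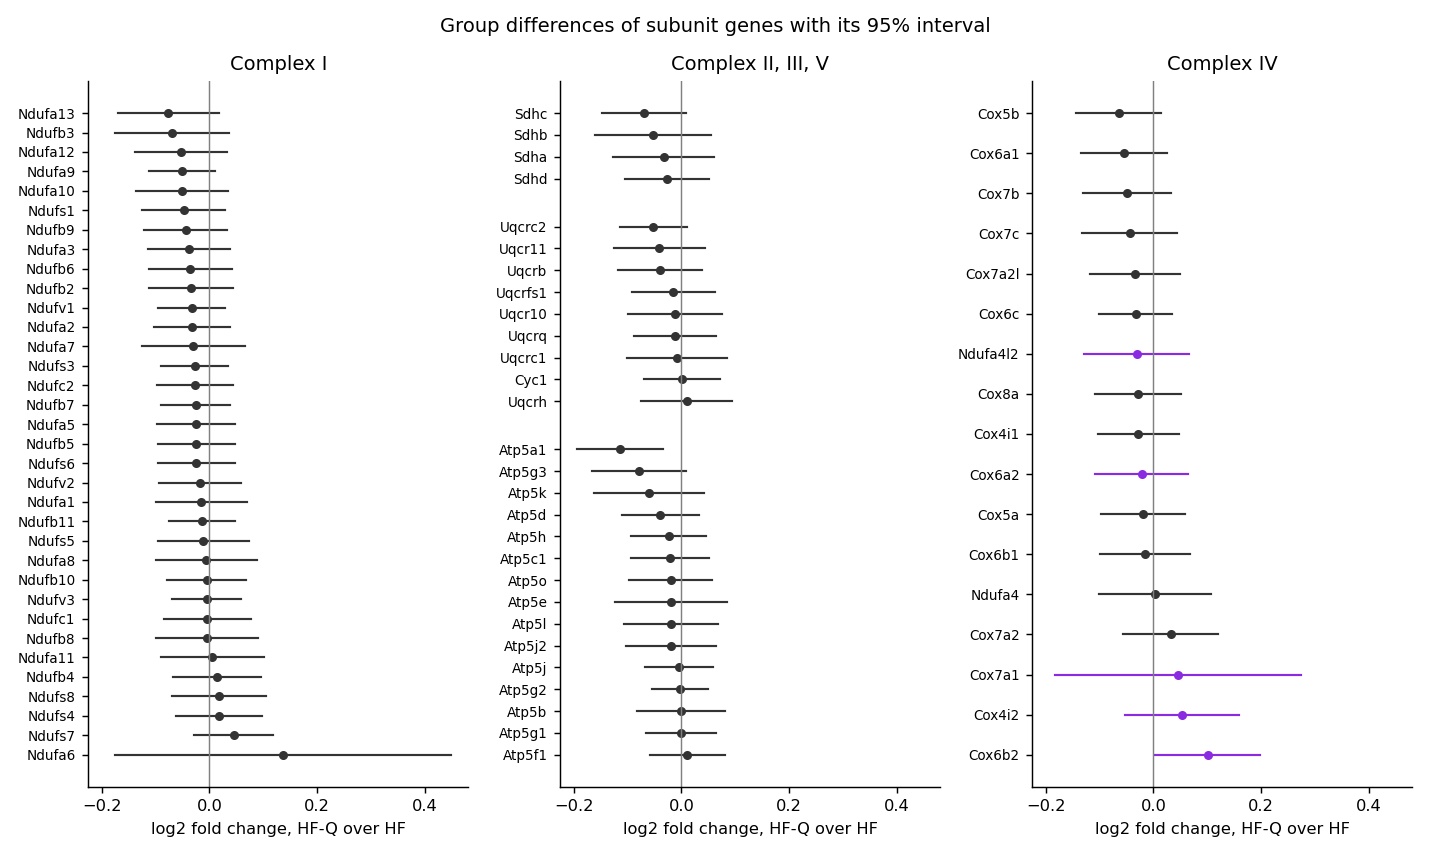
Log2 fold change of HF-Q over HF (x axis) for the subunit genes reported singly (y axis), with 95% intervals from limma, by complex; purple marks complex IV forms known from other tissues. Intervals of all genes shown but Atp5a1 and Cox6b2 cross 0, and those of Ndufa6 and Cox7a1 are by far the widest.

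The sign of the small differences depended on how the arrays were scaled. With loess ratios, 66 of 83 genes were lower and 17 higher in HF-Q, against 53.1% lower among all genes, with a median difference of -0.022 against -0.0044 for all genes; with arrays centred on their median alone, 9 were lower and 74 higher, and the median was 0.045. Median centring moved all genes the same way, to 34.4% lower and a median of 0.024. By the log2 values that the authors deposited, 24 were lower and 59 higher (47.7% of all genes lower), and with the Cy5 channel alone 55 were lower and 28 higher. The slides did not share a sign either. On slide 1 (4 HF-Q and 3 HF arrays) the median difference was 0.030, on slide 2 (2 and 4 arrays) it was -0.084, and on slide 3 (4 and 4 arrays) it was -0.016.

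The count at an unadjusted p below 0.05 changed with single livers, among the 83 genes and among all genes. Among the 83, leaving out HF-Q replicate 10 gave 3, HF replicate 2 gave 5, HF replicate 11 gave 4, and any other single liver 1 or 2. The count was 12 when HF replicate 2 and HF-Q replicate 10 were both left out, a choice made after their values were seen. They had the lowest HF and the highest HF-Q mean of these genes, while HF replicate 1, the highest HF liver, was kept. Leaving them out thus lowers the difference of that mean by construction. Over all 19650 genes, 1166 had such a p with every liver and 1863 without those 2 livers. The all-gene number was 1541 without HF-Q replicate 10, 1396 without HF replicate 2 and 1198 without HF replicate 11. With any other single liver left out it was 889 to 1436. None of the 83 genes passed the adjusted threshold in any of these fits. Over all genes 18 passed it without those 2 livers, 4 without HF replicate 2 alone and 1 without HF-Q replicate 10 alone.

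Complex I, the NADH dehydrogenase, held 35 tested genes with a median difference of -0.024, and of 0.045 with arrays centred on their median. Of its 7 core subunits, which carry the flavin and iron-sulphur centres or line the coenzyme Q site, 4 were lower and 3 higher in HF-Q with the loess ratios, and all 7 were higher with median centring. Ndufs1, which holds iron-sulphur clusters of the electron path, ranged in HF-Q livers from -0.24 to 0.032 with a median of -0.10, and in HF livers from -0.12 to 0.055 with a median of -0.036. The difference was -0.048 ± 0.037 (SE, limma p = 0.213). Ndufs7, next to the coenzyme Q site, had the opposite sign, 0.045 ± 0.035 (limma p = 0.214), with -0.0019 to 0.22 in HF-Q livers and -0.16 to 0.10 in HF livers. Ndufv1, the NADH-binding subunit, differed by -0.033 ± 0.030, and Ndufs3, Ndufs8 and Ndufv2 by between -0.027 and 0.018.

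Among the 28 accessory subunits of complex I, the smallest p belonged to Ndufa9, which lies near the coenzyme Q site. Its ratio was -0.011 to 0.072 in HF-Q livers (median 0.050) and -0.066 to 0.19 in HF livers (median 0.11). All HF-Q values lay inside the HF range, and the difference was -0.051 ± 0.029 (limma p = 0.095, adjusted p = 0.884). Ndufa13, also known as GRIM-19, differed by -0.076 ± 0.045 with 10 HF-Q and 10 HF values, and Ndufb3 by -0.069 ± 0.051. With arrays centred on their median, Ndufa9 stood at 0.0053, Ndufa13 at 0.00011 and Ndufb3 at -0.0059.

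Ndufa6 had the largest fitted difference of all, 0.14 ± 0.15, and it came from a single spot. The probe that stands for it reads 60 bases at chr15:82181444-82181503 (mouse build mm9, minus strand), and it is shown because the fitted difference of this accessory subunit hangs on its spot in 1 array; 1 of its 3 forward frames is free of stop codons.
Ndufa6 probe: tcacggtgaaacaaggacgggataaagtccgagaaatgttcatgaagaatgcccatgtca

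In HF replicate 8 the log2 ratio of this spot was -1.78, while the other 20 livers lay between -0.15 and 0.010. The intensities show that both dyes were dim there: Cy5 was 369.3 where the other arrays had 26410 to 33690, and Cy3, which carries the same pool everywhere, was 1018 where the others had 15630 to 22640. Relative to the median array, the spot was 75.6-fold low in Cy5 and 18.4-fold low in the pool channel. The scanner software had not marked it as an outlier. Without this spot, HF-Q livers averaged -0.083 ± 0.047 (SD, n = 10) and HF livers -0.064 ± 0.037 (SD, n = 10), and the difference was -0.020 ± 0.029 (SE, limma p = 0.494), with the sign turned. Among 2331 spots of 111 probes of these genes, only 1 other was more than 2-fold low in the pool channel: Ndufb4 in HF replicate 1, 5.98-fold low in Cy3 and 4.30-fold low in Cy5. That spot had been marked by the software and was left out, so Ndufb4 has 10 HF values.

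**Figure D2:**
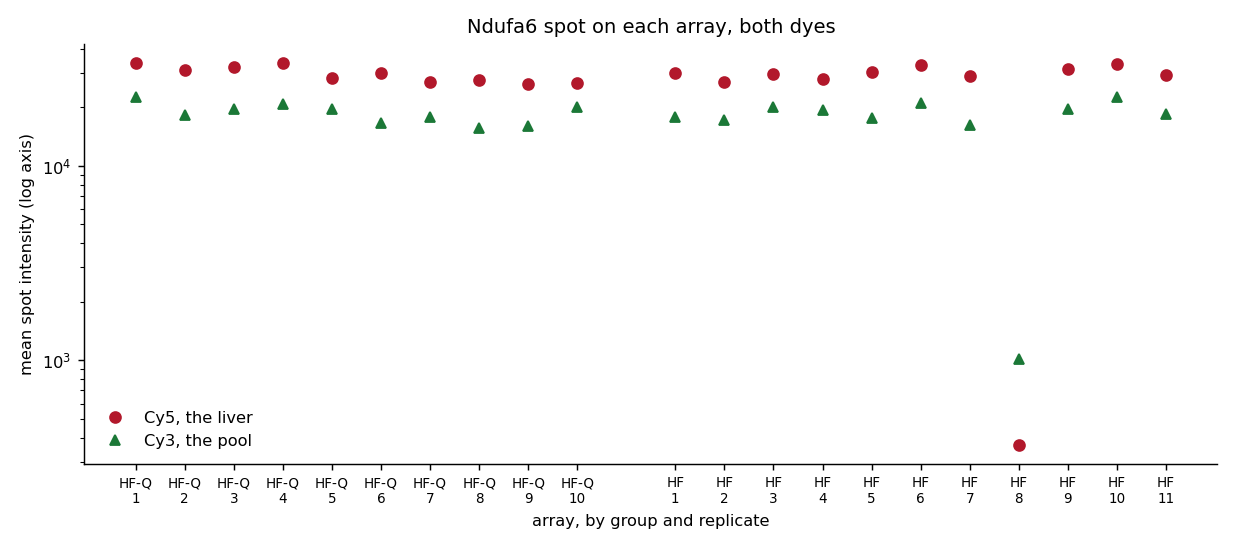
Mean spot intensity of the Ndufa6 probe (y axis, log scale) on each array (x axis, HF-Q arrays left, HF arrays right), with circles for Cy5, the liver, and triangles for Cy3, the pool. Both dyes drop in HF replicate 8, to 369.3 in Cy5 and 1018 in Cy3, and nowhere else.

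Complex II, succinate dehydrogenase, is also an enzyme of the citric acid cycle and is made from nuclear genes alone. Its 4 genes were all lower in HF-Q with the loess ratios, with a median of -0.043, and the median was 0.027 with arrays centred on their median. Sdhc, a membrane anchor, ranged from -0.20 to 0.042 in HF-Q livers (median -0.096) and from -0.20 to 0.045 in HF livers (median -0.0086), a difference of -0.069 ± 0.037 (SE, limma p = 0.077). Both groups reached down to the same level, and the HF median was the higher. Sdhb, the iron-sulphur subunit, differed by -0.053 ± 0.052, with -0.063 to 0.45 in HF-Q livers and -0.040 to 0.34 in HF livers. Sdha, the flavoprotein that oxidizes succinate, differed by -0.033 ± 0.045. In HF-Q livers it ranged from -0.27 to 0.093 (median 0.032), and in HF livers from -0.15 to 0.18 (median 0.013). The lowest Sdha value was that of HF-Q replicate 10, without which the difference was -0.0025 ± 0.039. Sdhd, the other anchor, differed by -0.027 ± 0.038.

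In complex III, which takes electrons from coenzyme Q to cytochrome c, 7 of 9 genes were lower in HF-Q with the loess ratios; the median was -0.012, and 0.041 with arrays centred on their median. The catalytic subunits had differences near 0: Cyc1, the cytochrome c1 haem protein, differed by 0.0016 ± 0.034 and Uqcrfs1, the Rieske iron-sulphur protein, by -0.015 ± 0.037. Uqcrc2, a core protein of the matrix side, had the smallest p of the complex. It ranged from -0.074 to 0.063 in HF-Q livers (median -0.0057) and from -0.065 to 0.13 in HF livers (median 0.061), a difference of -0.052 ± 0.031 (SE, limma p = 0.103). This probe (chr7:127802599-127802658, mm9) is printed 10 times on each array, which shows the error of the spots themselves. The SD among its spots within an array had a median of 0.021 (0.0067 to 0.067), and the SD of its array means over livers was 0.059. Uqcrc1, Uqcrb and Uqcr11 differed by -0.0085 ± 0.045, -0.040 ± 0.038 and -0.041 ± 0.041.

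Complex IV, cytochrome c oxidase, has subunits common to most tissues and forms known from particular ones. Of the 12 common or liver forms, 10 were lower in HF-Q with the loess ratios and 1 with median centring, with medians of -0.030 and 0.042. Cox5b, which binds zinc on the matrix side, ranged from -0.20 to 0.045 in HF-Q livers (median -0.077) and from -0.19 to 0.096 in HF livers (median 0.0066), and differed by -0.064 ± 0.038 (SE, limma p = 0.105). Cox6a1, the liver form of subunit 6a, had a narrow spread in HF-Q livers, 0.23 to 0.33 in 9 livers, inside that of HF livers, 0.14 to 0.48. The difference was -0.054 ± 0.039. Cox4i1, Cox5a, Cox6b1, Cox7b, Cox8a and Cox7a2l differed by between -0.048 and -0.015, Ndufa4 by 0.0027 ± 0.050 and Cox7a2 by 0.032 ± 0.043. The median over all of complex IV was -0.028, and 0.045 with arrays centred on their median.

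Of the 5 tested complex IV forms known from other tissues, 3 were higher in HF-Q with either scaling, and 1 of them, Cox6b2, had an unadjusted p below 0.05, where 3.02% of all genes were higher at that level. The probes of these 5 forms were dim, with mean log2 signals over both dyes from 6.86 (Cox6a2) to 9.80 (Cox7a1). Cox6b1, the dimmest of the common forms, had 13.2. Cox6b2 is the testis form of subunit 6b (chr7:4703488-4703547, mm9, minus strand). It ranged from -0.10 to 0.24 in HF-Q livers (median 0.11) and from -0.15 to 0.097 in HF livers (median -0.0051). The 5 highest livers were all HF-Q, and 3 HF-Q livers lay below 0. The difference was 0.10 ± 0.047 (SE, limma p = 0.0436, adjusted p = 0.830), and its sign was the same in all 40 other settings tried, in which it was 0.038 to 0.15. The unadjusted p was below 0.05 in 17 of those 40, and in 9 of the 21 that left out a single liver; it was not below 0.05 with median centring, with Cy5 alone or on any slide alone. Cox6b1, the common form, differed by -0.015 ± 0.041. Cox4i2, the lung form, differed by 0.053 ± 0.051, Cox6a2, the heart and muscle form, by -0.022 ± 0.042, and Ndufa4l2, known as a target of hypoxia-inducible factor, by -0.031 ± 0.047.

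Cox7a1, the heart and muscle form of subunit 7a (chr7:30970337-30970948, mm9), was the most variable subunit with sound spots, with an SD over livers of 0.27. In HF-Q livers it ranged from -0.35 to 0.74 with a median of -0.13, and in HF livers from -0.58 to 0.29 with a median of -0.077. The extremes were HF-Q replicate 7 at 0.74 and HF replicate 2 at -0.58. The difference was 0.046 ± 0.11 (SE, limma p = 0.684), and its 95% interval ran from -0.18 to 0.27. Of the 7 striated muscle genes looked for, 0 were measured well enough to be tested, so that list gave no level to set beside it. Over the 21 livers, the named genes whose ratios ran closest to that of Cox7a1 included Mgst3 (r = 0.876, and 0.785 without those 2 livers) and Cyp4a14 (r = 0.822, and 0.728). Mgst3 is a microsomal glutathione transferase and Cyp4a14 a fatty acid hydroxylase known as a PPAR-alpha target. Mup19, a major urinary protein, ran the other way (r = -0.851, and -0.711). These were looked for after the spread of Cox7a1 had been seen, and every point shares its array and the pool channel. In the same livers Cyp4a14 was at 1.49 in HF-Q replicate 7 and -1.89 in HF replicate 2.

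**Figure D3:**
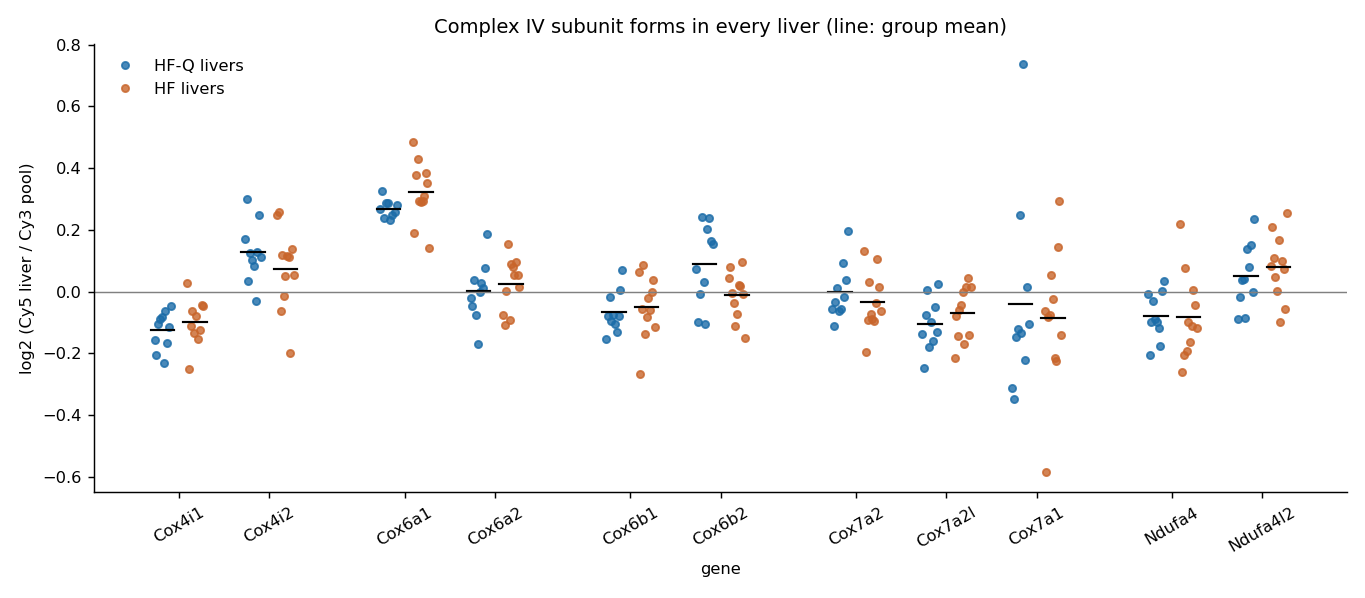
Log2 ratio of liver to pool (y axis) for subunit forms of complex IV (x axis), 1 point per liver, with HF-Q to the left and HF to the right for each gene and a line at each group mean. Every pair of groups overlaps; Cox7a1 spreads from -0.58 to 0.74, and 5 Cox6b2 values of HF-Q livers lie above all HF values.

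Complex V, the ATP synthase, held the subunit with the smallest p of all. Atp5a1, the alpha subunit of the catalytic F1 head (chr18:78021546-78021605, mm9), was at -0.18 to 0.080 in HF-Q livers (median -0.062) and at -0.055 to 0.19 in HF livers (median 0.052). The ranges overlapped, and 6 HF-Q livers lay below all HF livers. HF-Q livers averaged -0.057 ± 0.083 (SD, n = 10) and HF livers 0.057 ± 0.077 (SD, n = 11), a difference of -0.11 ± 0.038 (SE, limma p = 0.0071, adjusted p = 0.747); 2.91% of all genes were lower in HF-Q at an unadjusted p below 0.05. The sign was negative in all 40 other settings, between -0.22 and -0.042, and the unadjusted p was below 0.05 in 35 of the 40. It was -0.22, -0.080 and -0.058 on slides 1, 2 and 3, and -0.13 to -0.10 with 1 liver left out at a time. With arrays centred on their median the difference was -0.042 ± 0.12.

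The partners of Atp5a1 had smaller differences, which were not tested against its own. Atp5b, the beta subunit with which it alternates in the F1 head, differed by -0.00018 ± 0.039, with 0.049 to 0.26 in 8 HF-Q livers and 0.037 to 0.28 in HF livers. Atp5c1, the central gamma subunit, differed by -0.021 ± 0.035 and Atp5d, the delta subunit beneath it, by -0.039 ± 0.034. Atp5o, of the outer stalk, differed by -0.020 ± 0.037. The 3 genes of the membrane ring encode the same mature protein and differed unequally: Atp5g3 by -0.079 ± 0.042 (limma p = 0.074), Atp5g1 by -0.000039 ± 0.031 and Atp5g2 by -0.0027 ± 0.025. Over the 15 genes the median was -0.020, with 14 lower in HF-Q, and it was 0.052 with arrays centred on their median.

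Several subunits had more than 1 probe, which checks the values on the same arrays. For 29 genes with 70 kept probes, the fitted differences of a gene's probes spanned a median of 0.015, and 5 genes had probes of both signs. The widest span was that of Ndufv3, an accessory subunit of complex I, from -0.059 to 0.031.

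Each liver was then described by the mean over the 66 subunits with a value on every array, leaving out Ndufa6. This mean was 0.010 ± 0.034 in HF-Q livers (SD, n = 10; -0.036 to 0.090) and 0.029 ± 0.058 in HF livers (SD, n = 11; -0.091 to 0.12). The highest HF-Q liver was replicate 10, and the HF group held both the lowest liver, replicate 2, and the highest, replicate 1. By complex, the means of HF-Q and HF livers were 0.0084 and 0.027 for complex I, -0.021 and 0.025 for complex II, 0.063 and 0.083 for complex III, -0.030 and -0.0048 for the common forms of complex IV, and 0.012 and 0.040 for complex V. HF replicate 2 was lowest in every one of these sets.

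**Figure D4:**
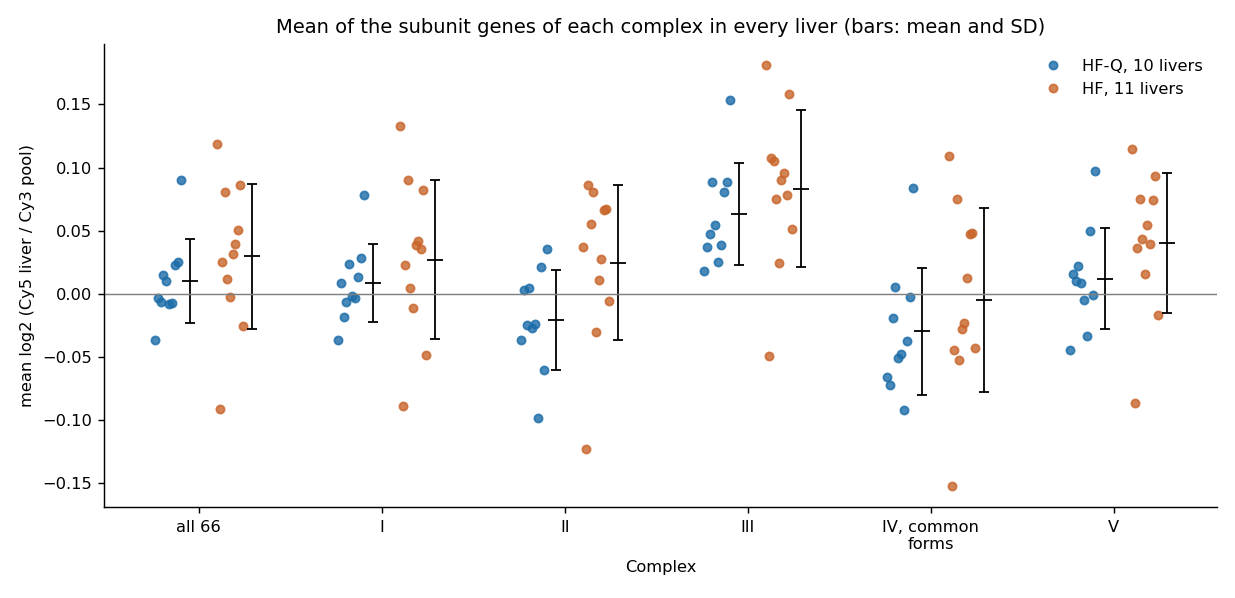
Mean log2 ratio of liver to pool (y axis) over the subunit genes of each complex (x axis), 1 point per liver, with HF-Q livers left of HF livers; black bars give the group mean and SD. The groups overlap in every complex, and the lowest point of each is HF replicate 2.

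Single livers set much of the spread within groups. The SD was smaller in HF-Q than in HF for 61 of 82 genes, or 74.4%, against 52.8% of all genes. Without HF replicate 2 it was 56.1% against 49.6%, and without HF replicates 1 and 2 45.1% against 45.2%. Without HF-Q replicate 10 it was 84.1% against 60.2%. Leaving out a group's extreme liver lowers that group's SD by construction.

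The subunits moved together from liver to liver. With group means removed, the median Pearson r over all pairs of the 66 genes was 0.40 and 82% of pairs were above 0, while the mean r was 0.333 over these pairs and 0.0024 over pairs of all genes. The livers share the array and the pool channel, so r is a description. The pairs of all genes were not matched for signal strength, and its part in the higher r was not tested. Without HF replicate 2 the median was 0.30, and without HF replicates 1 and 2 it was 0.28. Within complexes the median was 0.46 for I, 0.082 for II, 0.27 for III, 0.16 for IV and 0.45 for V. Between genes of different complexes it was 0.39, above the values within II, III and IV. Against the mean of the other genes, 60 of 66 had a positive r and 46 reached 0.5. The closest were Cox6b1 at 0.91, Ndufs5, a small accessory subunit of complex I, at 0.90, and Uqcr10, a small subunit of complex III, at 0.89.

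A few large catalytic subunits stood outside this pattern. Sdha had an r of -0.57 with the mean of the others, while Sdhb, Sdhc and Sdhd of the same complex had 0.72, 0.66 and 0.73. Ndufs1 had -0.25 and Atp5a1 -0.16. In HF-Q replicate 10, the HF-Q liver with the highest mean, Sdha was at -0.27 and Ndufs1 at -0.24, the lowest HF-Q values of both, and Sdhb was at 0.45, its highest. HF replicate 1 had the highest mean of all livers and the lowest Sdha value of the HF livers, -0.155. The r of Sdha was not computed without these 2 livers. The 7 core subunits of complex I had a median r of 0.43, and the 22 accessory subunits 0.74. In complex IV the 10 common forms had a median of 0.82 and the 5 forms known from other tissues 0.20, among them Ndufa4l2 at -0.19 and Cox4i2 at -0.044. The probes of those 5 were dim, as given above, and the part of signal strength in their lower r was not tested. Cox7a2l, a factor of supercomplex assembly rather than a fixed subunit, was at -0.083.

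**Figure D5:**
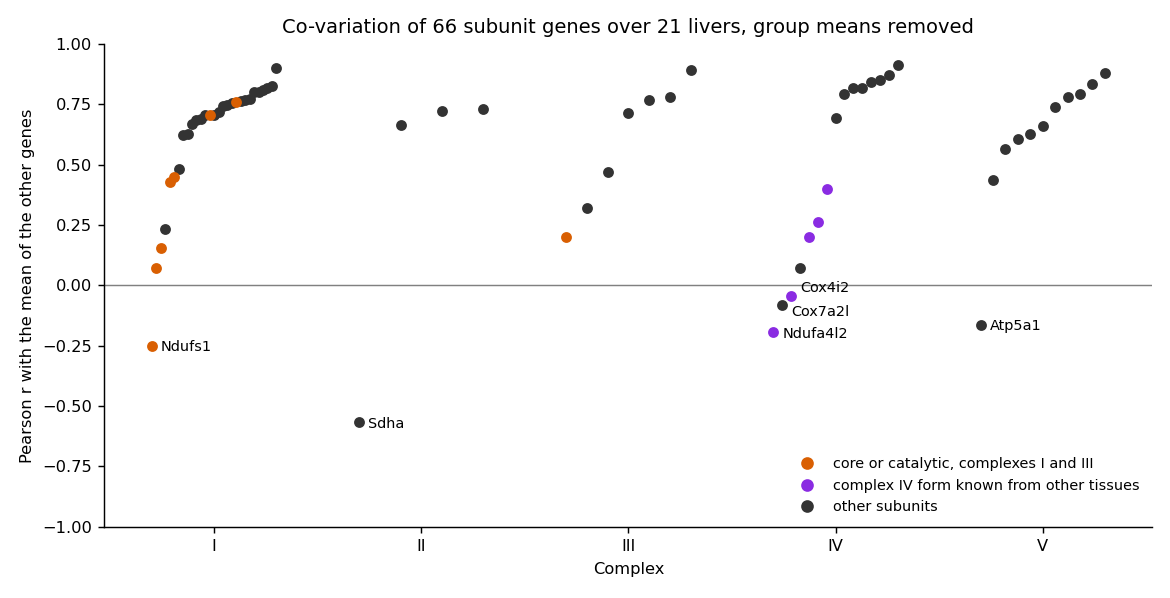
Pearson r of each of 66 subunit genes with the mean of the others over 21 livers, group means removed (y axis), by complex (x axis), 1 point per gene; colours mark core or catalytic subunits of complexes I and III and complex IV forms known from other tissues. Most points lie above 0.5, and the 6 below 0 are named, down to -0.57 for Sdha.

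Because the genes moved together, their promoters were read for motifs of factors known to act on respiratory chain genes: GCGCA and GCGC with any 1 base between them for NRF1, CCGGAAG for ETS factors such as GABP, and AAGATGGC for YY1, each on both strands. RefSeq windows (GRCm38.p6) were found for 69 of the 86 genes, and the 250 bases before the start were searched. The NRF1 letters stood in 13 of 69 genes (18.8%), against 4.23% of 27025 genes, the ETS letters in 12 (17.4%, against 7.83%) and the YY1 letters in 2 (2.9%, against 1.83%). At least 1 of the 3 stood in 33.3%, against 12.8% of all genes. No 2 motifs overlapped in the windows below, which belong to 1 gene of each complex that holds a motif; capitals mark the match.
Ndufb6 (complex I, chr4:40279422-40279671, minus strand): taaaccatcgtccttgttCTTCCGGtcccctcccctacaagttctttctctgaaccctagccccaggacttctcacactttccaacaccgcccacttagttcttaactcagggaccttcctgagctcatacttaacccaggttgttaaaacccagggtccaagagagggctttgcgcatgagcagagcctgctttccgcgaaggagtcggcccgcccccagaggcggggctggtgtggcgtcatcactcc
Sdha (complex II, chr13:74350241-74350490, minus strand): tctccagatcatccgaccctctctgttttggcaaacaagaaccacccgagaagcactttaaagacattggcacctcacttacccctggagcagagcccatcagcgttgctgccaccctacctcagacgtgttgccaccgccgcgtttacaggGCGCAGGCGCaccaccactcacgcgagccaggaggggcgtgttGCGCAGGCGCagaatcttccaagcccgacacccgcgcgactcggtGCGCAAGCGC
Uqcr11 (complex III, chr10:80406822-80407071, minus strand): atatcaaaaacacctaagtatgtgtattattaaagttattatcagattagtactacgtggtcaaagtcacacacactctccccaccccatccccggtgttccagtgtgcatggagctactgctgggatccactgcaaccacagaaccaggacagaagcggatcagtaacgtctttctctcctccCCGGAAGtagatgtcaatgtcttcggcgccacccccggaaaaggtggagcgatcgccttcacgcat
Cox6a1 (complex IV, chr5:115348959-115349208, minus strand): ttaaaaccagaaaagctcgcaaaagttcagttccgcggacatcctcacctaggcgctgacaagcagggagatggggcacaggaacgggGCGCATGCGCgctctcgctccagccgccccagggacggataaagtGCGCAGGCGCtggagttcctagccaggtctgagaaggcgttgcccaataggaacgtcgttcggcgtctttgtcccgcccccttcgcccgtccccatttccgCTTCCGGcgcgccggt
Atp5k (complex V, chr5:108434400-108434649, minus strand): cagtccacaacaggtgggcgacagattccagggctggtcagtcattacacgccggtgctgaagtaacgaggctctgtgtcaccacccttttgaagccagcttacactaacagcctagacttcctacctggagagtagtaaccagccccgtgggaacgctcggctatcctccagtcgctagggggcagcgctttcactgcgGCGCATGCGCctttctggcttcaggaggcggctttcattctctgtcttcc

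Sdha, the gene furthest from the shared pattern, held the NRF1 letters 3 times, the first bases lying 98, 55 and 10 bases before the start. Cox6a1 held them 162 and 117 bases before the start and the ETS letters at 16, on the other strand. In Atp5k, a small subunit of the membrane part, the NRF1 letters began 50 bases before the start. Uqcr11 held the ETS letters 66 bases before the start and Ndufb6 232 bases before it. A match is a description of these letters and not a site of binding.

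None of the factors themselves, and few of the genes around the chain, had a small p. Of 13 regulators tested, 0 had an unadjusted p below 0.05: Ppargc1a, the coactivator of mitochondrial biogenesis, differed by -0.077 ± 0.10, Nrf1 by 0.0066 ± 0.062, Gabpa by -0.012 ± 0.054, Esrra, an orphan receptor that acts with Ppargc1a, by -0.10 ± 0.068, and Tfam, which packs mitochondrial DNA, by -0.033 ± 0.041. Assembly factors gave 0 of 14 for complex I, 0 of 4 for II, 0 of 5 for III, 0 of 19 for IV and 0 of 4 for V, and the citric acid cycle 0 of 14. Among 13 genes of coenzyme Q and the mobile carriers, 1 had an unadjusted p below 0.05, where 5.93% of all genes did. That gene was Etfdh, which feeds electrons from fatty acid oxidation into coenzyme Q, at -0.11 ± 0.049 (limma p = 0.038, adjusted p = 0.820). Cycs, cytochrome c, differed by 0.018 ± 0.051. The carriers of ADP, ATP and phosphate and the uncoupling proteins gave 0 of 5, with Ucp2 at 0.037 ± 0.078.

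The 13 subunits encoded in the mitochondrial genome spread more widely from liver to liver than the nuclear ones. Of them 0 had an unadjusted p below 0.05 with all livers, and the smallest was that of ND3 at -0.090 ± 0.062 (limma p = 0.161). The median difference was -0.046, 0.025 with median centring and 0.012 without HF replicate 2. It was -0.16, 0.27 and -0.21 on slides 1, 2 and 3 alone. On slide 2, 12 of the 13 were higher in HF-Q, 4 of them at an unadjusted p below 0.05. On slide 3, 12 were lower, 1 of them at that level. Over all 19650 genes 707 and 947 had such a p on slides 2 and 3. Without both HF replicate 2 and HF-Q replicate 10, 12 of the 13 were higher. These were the highest HF and the lowest HF-Q liver for the mean of the mitochondrial genes. Leaving them out thus raises HF-Q against HF by construction. The per-liver mean of the 7 with a value on every array was 0.057 ± 0.26 in HF-Q livers (-0.38 to 0.39) and 0.10 ± 0.25 in HF livers (-0.21 to 0.69), set against SDs of 0.034 and 0.058 for the nuclear subunits. Its highest liver was HF replicate 2, the lowest for the nuclear subunits, and its lowest was HF-Q replicate 10, the highest HF-Q liver for them. Over the 21 livers r between both means was -0.64 (rho -0.43), and without HF replicates 1 and 2 it was -0.45 (rho -0.30). The mean of the mitochondrial ribosomal protein genes had an r of 0.70 with that of the nuclear subunits (rho 0.60), and 0.61 (rho 0.51) without those 2 livers; that of the cytosolic ribosomal protein genes had -0.33 (rho -0.54), and -0.42 (rho -0.59). COX1 was the extreme, from -4.02 in HF-Q replicate 10 to 1.23 in HF replicate 2. It was also low in HF replicates 1 (-3.93), 9 (-3.72) and 4 (-1.555) and in HF-Q replicates 9 (-2.13) and 1 (-2.03). Its fitted difference was -0.20 ± 0.74.

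Ribosomal protein genes were set beside them, with no test of the difference. Of 77 cytosolic ribosomal protein genes, 76 were higher in HF-Q with loess ratios as with median centring, with medians of 0.067 and 0.14; 22 had an unadjusted p below 0.05 with loess ratios, where 3.02% of all genes were higher at that level, and 0 passed the adjusted threshold. That count was 1 with median centring, 51 in the deposited log2 values and 0 on slide 2 alone. Over all genes, in either direction, 239 of 19650, 1092 of 19592 and 707 of 19650 had such a p in those settings. With single livers left out the ribosomal count was 14 to 35. It was lowest without HF-Q replicate 1, HF replicate 3 or HF replicate 5 and highest without HF-Q replicate 10. Over all genes those fits gave 965, 923, 1012 and 1541 in either direction. Of 76 mitochondrial ribosomal protein genes, 45 were higher with loess ratios and 75 with median centring. All 8 hepatocyte markers looked for were measured. Among cell type markers, 0 of 8 hepatocyte, 0 of 7 Kupffer cell, 0 of 6 endothelial, 0 of 7 stellate, 0 of 3 cholangiocyte, 0 of 7 lymphocyte, 0 of 2 adipocyte and 0 of 4 exocrine pancreas genes had an unadjusted p below 0.05. The per-liver mean of the hepatocyte markers ran from -0.36 to 0.46 in HF-Q livers and from -0.087 to 0.52 in HF livers, and that of the Kupffer cell markers from -0.63 to -0.027 in HF-Q livers and from -0.57 to 0.70 in HF livers. With loess ratios the 4 exocrine pancreas genes had a median difference of -0.42. Their per-liver mean ran from -0.93 to -0.14 in HF-Q livers (median -0.82) and from -0.99 to 2.54 in HF livers (median -0.87). The typical HF-Q liver was thus not lower than the typical HF liver. The part of these cell types in the liver-to-liver pattern of the subunits was not tested.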

How the data were processed

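Livers of 10 HF-Q and 11 HF mice were measured on 3 slides, each holding arrays of both groups, with 1 liver in Cy5 and a pool of all samples in Cy3, per the labels. What the authors deposited is scanner output of Agilent Feature Extraction 10.7.3.1 (submitters' processing notes). Its spot and background intensities are not normalized, while its processed intensities had background subtracted and the dyes balanced by that program, per the file headers. The same headers give its flags for spots over background, saturated or outlying. A series table, deposited as well, holds log2 values, and its 21 columns share a median of 7.92; the sources used here do not say how it was made, and it served only as an alternative. Its columns for HF-Q replicates 7 and 8 match each other's scanner arrays (r = 0.891 and 0.931, and 0.0097 and 0.011 with their own) and the other 19 match their own, so HF-Q replicate numbers here are those of the scanner files.

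Background was corrected with normexp (offset 50) and ratios were normalized by loess within arrays with limma 3.58.1 (R 4.3.3); control and flagged spots had weight 0 and were then left out. Spots of a probe were averaged, probes well above background in Cy5 on at least 10 of 21 arrays were kept (26291), and the probe with the highest mean signal stood for a gene name (19650 genes). The difference of HF-Q from HF was fitted in limma (moderated two-sided test, Benjamini-Hochberg adjustment over all genes), and the procedure was tested on simulated data. Normexp with an offset draws ratios of dim genes toward 0, and no dyes were swapped. The labels name each mouse's liver as a separate sample, and no 2 arrays were identical.

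Gene names are those of the array; 82 of 86 members had a RefSeq symbol through their accession, 4 of them changed. Coordinates of probes come from the array files (mm9), and promoters are RefSeq's (GRCm38.p6). The members, lists and motifs were chosen with earlier results of these data known, so no set test and no p over the list alone was made. The members named are all of complex II, the 4 of smallest p and the most variable in each other complex, the core or catalytic subunits and the sets of alternative forms. Alternatives covered background, scaling, filters, probes, weights, slides and single livers. The values of 1 gene are counted in the totals and not reported here.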

Additional observations from a re-analysis of the deposited data

Results flagged for a closer look

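Among the 10 HF-Q livers, 6 of 82 genes checked had a single liver whose distance from its nearest neighbour was a large share of the group's whole range; about 1 in 20 genes would show this by chance. This is 7.32% of these genes, against 8.98% of all genes. The 11 HF livers were not checked this way. HF-Q replicate 10 accounts for 4 of the 6, and these genes vary together, so the 4 need not be separate events. In it Atp5j2, a membrane subunit of ATP synthase, was at 0.283, with the next liver at 0.121, and Ndufs4, an accessory subunit of complex I, was at 0.259, with the next at 0.0888. Sdha was at -0.27 there, with the next liver at -0.052, and Sdhc of the same complex was at 0.042, with the next at -0.079, so that the catalytic flavoprotein and a membrane anchor of succinate dehydrogenase lay at opposite ends of the HF-Q range in 1 liver. Ndufv1, the NADH-binding subunit of complex I, was at 0.056 in HF-Q replicate 8, with the next at -0.035. Uqcrfs1 was at -0.13 in HF-Q replicate 6, with the next at -0.020.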

How the results depend on the processing

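None of the 83 genes passed the adjusted threshold in limma in the main setting or in any of the 40 alternatives, and 0 named genes changed sign with an unadjusted p below 0.05. Over all genes 18 passed the adjusted threshold without both HF replicate 2 and HF-Q replicate 10, and 4 without HF replicate 2 alone. It was passed by 1 gene without HF-Q replicate 10 alone, by 1 with array weights and by 1 on slide 2 alone. Of 1800 alternative values of 45 named genes, 172 had the other sign, 53 of them among 945 values with a single liver left out. The median difference, -0.022, was 0.045 with median centring and -0.084 on slide 2 alone; with single livers left out it was -0.035 to -0.014. The 17 genes higher in HF-Q became 10 with the scanner software's processed signals, 74 with median centring, 28 with Cy5 alone, 59 in the deposited log2 values, 48 on slide 1 alone, 33 on slide 3 alone and 10 without both HF-Q replicate 10 and HF replicate 2, with 10 to 27 when single livers were left out. The 66 lower became 9 with median centring, 24 in the deposited values and 35 on slide 1 alone, with 56 to 73 when single livers were left out. The share of all genes lower was 53.1% in the main setting, 34.4%, 47.7% and 51.2% in those 3. The 2 at an unadjusted p below 0.05 became 1 with processed signals, 0 with median centring, 1 with Cy5 alone, 0 in the deposited values, 5 with array weights, 1, 1 and 0 on slides 1, 2 and 3 alone and 12 without both livers, with 1 to 5 when single livers were left out. Over all genes, 1166 had such a p in the main setting, 920 with processed signals, 239 with median centring and 921 with Cy5 alone. The number was 1092 in the deposited values, 1760 with array weights, and 1353, 707 and 947 on slides 1, 2 and 3 alone. Without both livers it was 1863, and 889 to 1541 when single livers were left out. The cause of these changes was not tested. Leaving out both livers, and the Ndufa6 spot, were chosen after seeing the data. HF replicate 2 had the lowest HF mean of these genes and HF-Q replicate 10 the highest HF-Q mean. Leaving out both thus lowers the difference of that mean by construction.

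Replicate numbers only name the livers: over 10 same-numbered pairs the residual r ran from -0.34 to 0.16, with 1 above 0.1, and 0 of 20 arrays correlated best with their own number. With the replicate block 68 genes were lower and 15 higher in HF-Q, 2 had an unadjusted p below 0.05 (Atp5a1 and Atp5g3, in place of Atp5a1 and Cox6b2) and 0 passed the adjusted threshold. Weak spots limit Cox7b2, Cox8b and Cox8c, and pool-based ratios compare livers with each other, not genes.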
